A study of Mus musculus with 14 samples.

Results

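The 7 GABA-A receptor subunit genes Gabra2, Gabra3, Gabra4, Gabra5, Gabrb1, Gabrb2 and Gabrd were followed in primary cortical neurons. They were chosen by gene symbol, as genes of the receptor that bicuculline blocks, from a table of 45802 features. All 7 were measured in each of 14 libraries, and all 7 lay above the filter on low values that left 10877 tested genes. RNA was sequenced from cortical cultures of wild-type C57BL/6 mice after 12 days in vitro and 1 h of treatment, as ribosome-depleted total RNA. Bicuculline at 20 µM was given to 3 libraries. NMP peptides, which are peptides made by the neuronal membrane proteasome, were given at 4% by volume to 3 libraries. Another 3 libraries had the same peptides with APV, which blocks NMDA receptors, added at 100 µM. The preparation called PK-cleaved NMP peptides, which proteinase K had digested, was given at 4% by volume to 3 libraries. The controls were 2 libraries treated with 1% DMSO, numbered as replicates 2 and 3 and headed Nostim in the data. A control replicate 1 was not among the libraries analysed. The labels give a DMSO content for the controls alone, so solvent and treatment cannot be told apart in comparisons with them. APV without peptides was not among the libraries analysed, so effects of APV itself and of APV on the peptide response cannot be told apart.

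GABA-A receptors are chloride channels opened by GABA, the main inhibitory transmitter of the cortex, and each channel is a pentamer assembled from several subunit genes. The most common channels hold alpha and beta subunits with a gamma subunit and sit at synapses, while channels with a delta subunit sit outside synapses and carry tonic inhibition. The alpha subunit sets much of a channel's pharmacology and location, and the beta subunit takes part in the GABA binding site and in the transport of the receptor to the membrane. Bicuculline competes with GABA at that site and so disinhibits a neuronal network.

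Levels are given on the deposited log2 scale, which no label defines. It was judged from the values to be a signal per exon length, and levels of different genes are set side by side on that reading. Antilogged values multiplied by exon length in kilobases summed to between 1180000 and 1270000 per library. Without the length they summed to between 295000 and 302000. All libraries were quantile-normalised and had the same median of 2.19. The read depth behind the values is unknown. Summed antilogged levels of 8 pan-neuronal markers lay between 1774 and 2159. Those of 7 excitatory and 10 inhibitory neuron markers lay at 240.1 to 330.6 and at 475.7 to 604. Astrocyte markers were also present, at 259.7 to 335.5 over 8 genes, and 8 oligodendrocyte lineage markers summed to between 117.7 and 176.3. The 8 microglia markers summed to between 0.71 and 1.25 and the 6 endothelial and mural markers to between 1.18 and 1.82, and none of these 14 genes lay above the filter. In bulk RNA, fewer cells of a type and less RNA per cell cannot be told apart.

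The order of the 7 mRNAs was nearly the same in every library. Gabra2, an alpha subunit enriched at inhibitory synapses, was the most abundant of them with a mean of 5.66 on the log2 scale over 14 libraries, at percentile 93.3 of all features with a value. Gabra5, an alpha subunit known for extrasynaptic receptors in hippocampus and deep cortical layers, followed at 5.31. Gabrb2, a beta subunit, averaged 4.38, and Gabra3, an alpha subunit, averaged 4.23. Gabra4, an alpha subunit that partners with delta in forebrain, averaged 3.39, and Gabrb1, another beta subunit, averaged 2.98. Gabrd, the delta subunit, was lowest at 1.62, at percentile 49.9. Neighbours in this order kept it in 14 of 14 libraries, with the exception of Gabrb2 over Gabra3. That pair kept the order in 11 of 14 libraries, with differences between -0.16 and 0.53 log2 units, so the levels of these neighbours did not differ beyond their spread.

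Gabra2, Gabra4 and Gabrb1 lie on chromosome 5 of GRCm38 in 1 cluster, at 70957597 to 71095849, 71569749 to 71658308 and 71658113 to 72149037. Gabra5 lies on chromosome 7 at 57407672 to 57510059, Gabrb2 on chromosome 11 at 42419757 to 42629028, Gabra3 on chromosome X at 72432681 to 72656848 and Gabrd on chromosome 4 at 155384980 to 155398112. Gabra4 runs on the minus strand and Gabrb1 on the plus strand, and their 5′ ends overlap. In the GENCODE annotation 46 exon bases are shared between them on opposite strands, 0.756% of the exon bases of Gabra4 and 0.332% of those of Gabrb1. Gabra5 shares 148 exon bases, 4.98% of its own, with Gm9962 on the opposite strand, a gene with no value in the table. The sources used here do not state whether reads were counted by strand, so reads from these shared bases cannot be assigned to either gene.

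Promoter windows were available for 6 of the 7 genes, from 250 bases before to 50 bases after an annotated start, credited to RefSeq on GRCm38.p6. Those of 3 genes are shown because Gabra2, Gabra5 and Gabrb2 are the members with an unadjusted p under 0.05 in NMP peptides plus APV against NMP peptides, as described below. Capitals mark matches, on either strand, to the GC box GGGCGG, the CCAAT box CCAAT and the core TGACG of the cAMP response element, and no marked matches overlap.
Gabra2, chr5:71095800-71096099, minus strand: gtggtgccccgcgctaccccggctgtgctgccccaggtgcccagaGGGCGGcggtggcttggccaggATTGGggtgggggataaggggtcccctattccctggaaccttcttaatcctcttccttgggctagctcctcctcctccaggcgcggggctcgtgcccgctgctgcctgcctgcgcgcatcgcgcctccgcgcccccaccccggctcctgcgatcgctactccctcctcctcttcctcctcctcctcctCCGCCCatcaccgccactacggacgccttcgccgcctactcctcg
Gabra5, chr7:57510010-57510309, minus strand: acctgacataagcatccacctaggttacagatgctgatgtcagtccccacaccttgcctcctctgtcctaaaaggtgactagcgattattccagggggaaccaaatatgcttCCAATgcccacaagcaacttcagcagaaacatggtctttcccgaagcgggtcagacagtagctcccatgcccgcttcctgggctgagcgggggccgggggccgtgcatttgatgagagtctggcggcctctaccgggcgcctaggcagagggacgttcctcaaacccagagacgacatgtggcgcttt
Gabrb2, chr11:42420190-42420489, plus strand, the first of 3 windows: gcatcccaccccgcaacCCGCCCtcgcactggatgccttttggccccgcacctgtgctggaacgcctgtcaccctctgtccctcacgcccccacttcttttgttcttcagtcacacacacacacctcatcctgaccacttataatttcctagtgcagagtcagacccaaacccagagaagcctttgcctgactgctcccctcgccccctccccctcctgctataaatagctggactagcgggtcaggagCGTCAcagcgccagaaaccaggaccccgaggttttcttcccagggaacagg
The Gabra2 window held 2 GC boxes and 1 CCAAT box, and 70% of its bases were G or C. The Gabra5 window held 1 CCAAT box and no GC box, at 56.7% G or C. The Gabrb2 window held 1 GC box and 1 core of the cAMP response element, at 59% G or C. Over 32851 mouse promoter windows of the same length the median was 52.67%, the GC box was found in 35.7%, the CCAAT box in 37.4% and the TGACG core in 20.8%. The full cAMP response element TGACGTCA, the AP-1 site TGANTCA and the Egr site GCGTGGGCG, which factors made or activated by neuronal activity bind, had no match in any window of the 6 genes. They were found in 1.79%, 7.81% and 0.612% of all windows, and a missing match says only that these letters are not in these 300 bases.

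The overlapping pair on chromosome 5 is shown next, because Gabra4 and Gabrb1 begin 387 bases apart in RefSeq and run in opposite directions.
Gabra4, chr5:71658259-71658558, minus strand: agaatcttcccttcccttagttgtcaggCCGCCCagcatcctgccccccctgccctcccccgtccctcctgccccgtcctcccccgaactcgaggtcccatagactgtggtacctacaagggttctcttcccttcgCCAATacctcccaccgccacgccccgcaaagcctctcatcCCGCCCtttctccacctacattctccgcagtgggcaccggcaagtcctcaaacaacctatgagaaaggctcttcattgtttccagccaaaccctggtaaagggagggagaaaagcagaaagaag
Gabrb1, chr5:71657671-71657970, plus strand, the first of 2 windows: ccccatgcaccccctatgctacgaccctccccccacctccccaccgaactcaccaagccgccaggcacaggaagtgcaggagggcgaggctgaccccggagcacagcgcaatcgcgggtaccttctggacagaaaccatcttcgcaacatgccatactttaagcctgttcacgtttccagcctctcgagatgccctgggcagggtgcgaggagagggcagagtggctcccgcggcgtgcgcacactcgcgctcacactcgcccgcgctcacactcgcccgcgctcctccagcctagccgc
The Gabra4 window held 2 GC boxes and 1 CCAAT box, at 58.7% G or C, and the Gabrb1 window held no match to a searched motif, at 66% G or C. The second Gabrb1 window held 1 match to the NRF1 site, which 0.971% of all windows have.

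Blocking the receptor for 1 h was not followed by a detected difference in the mRNA of any of its 7 subunits. With bicuculline against DMSO, limma called 0 of 7 members at an adjusted p under 0.05, where 0.469% of all tested genes were called. At an unadjusted p under 0.05 it again had 0 of 7 members, where 3.14% of all genes passed. No member had bicuculline and DMSO libraries that did not overlap, where 17.8% of all genes did. The 7 log2 fold changes had a median of -0.07, beside -0.03 over all tested genes. The activity gene Npas4, by contrast, averaged 5.64 in bicuculline libraries and 1.31 in DMSO libraries.

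Gabra2 measured 5.75, 5.33 and 5.59 in bicuculline libraries, against 5.56 and 5.77 in DMSO libraries. Gabra5 measured 5.38, 5.24 and 5.29 in bicuculline libraries, against 5.28 and 5.55 in DMSO libraries. In both genes the bicuculline and DMSO libraries overlapped, with log2 fold changes of -0.10 (SE 0.12) and -0.11 (SE 0.11). That of Gabra5 was -0.24 without DMSO replicate 2 and 0.02 without DMSO replicate 3. Gabrb2 had the fold change farthest from 0 of the 7, at -0.23 (SE 0.17, adjusted p = 0.996), with 4.49, 4.25 and 3.98 in bicuculline libraries, against 4.36 and 4.58 in DMSO libraries. One bicuculline library of Gabrb2 lay between the DMSO libraries and the others below both. Gabrd measured 1.79, 1.43 and 1.82 in bicuculline libraries, against 1.45 and 1.70 in DMSO libraries, a log2 fold change of 0.10 (SE 0.16). Gabra3, Gabra4 and Gabrb1 had log2 fold changes of -0.01, -0.03 and -0.07. The outermost bounds of the 7 intervals at 95% were -0.592, for Gabrb2, and 0.44, for Gabrd, which correspond to 0.663-fold and 1.36-fold. The Gabra3 interval was narrower, from -0.23 to 0.21 log2 units.

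**Figure D1:**
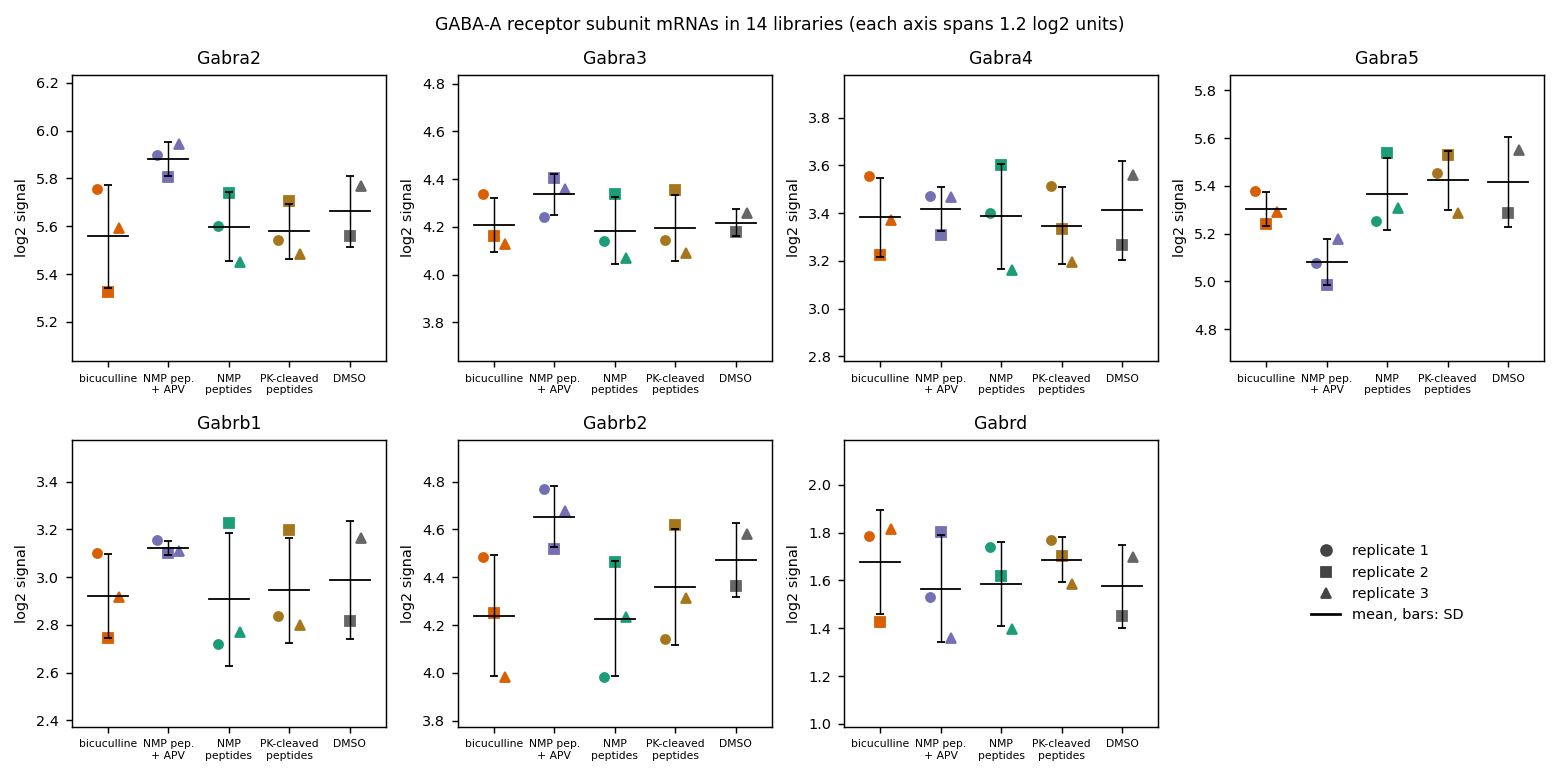
Log2 signal of each of the 7 subunit mRNAs in the 14 libraries, by group. Points are libraries, horizontal lines are group means, bars are SD, and each panel spans 1.2 log2 units. The NMP peptides plus APV libraries have the highest mean of Gabra2 (5.88) and of Gabrb2 (4.65) and the lowest mean of Gabra5 (5.08).

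The peptide treatments also called no subunit. With NMP peptides against DMSO 0 of 7 members were called, at 0.0184% of all genes, and with PK-cleaved NMP peptides against DMSO 0 of 7, at 0% of all genes. At an unadjusted p under 0.05 there were 0 of 7 members in both, beside 2.02% and 1.05% of all genes. Libraries not overlapping were found for 0 of 7 members in both, beside 17.4% and 11% of all genes. With NMP peptides against PK-cleaved NMP peptides, 0 of 7 were called (0.0827% of all genes), 0 of 7 passed unadjusted (1.65%) and 0 of 7 had libraries apart (5.21%). The outermost bounds of the intervals in that comparison were -0.453 and 0.307 on the log2 scale.

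Gabrb2 measured 3.98, 4.46 and 4.23 in NMP peptides libraries, against 4.14, 4.62 and 4.31 in PK-cleaved NMP peptides libraries, a log2 fold change of -0.13 (SE 0.15). Gabra3 measured 4.14, 4.34 and 4.07 in NMP peptides libraries, against 4.15, 4.35 and 4.09 in PK-cleaved NMP peptides libraries, a log2 fold change of -0.01 (SE 0.09). The libraries of the groups overlapped in both genes, and replicate 2 was the highest of its group in both genes and both groups. By replicate number, NMP peptides minus PK-cleaved NMP peptides was -0.159, -0.156 and -0.081 for Gabrb2, lower in 3 of 3 pairs. It was -0.004, -0.013 and -0.020 for Gabra3, and Gabrd was also lower in all 3 pairs, while the other 4 members had both signs. The share of all tested genes with the same sign in all 3 pairs of these groups was not counted, so these signs are a description only. A fit of these groups alone with replicate number as a block gave Gabrb2 an SE of 0.05 and an adjusted p = 0.735, so it was not called there either. In Gabrb1, which had both signs, replicate 2 was also the highest of both groups. It measured 2.72, 3.23 and 2.77 in NMP peptides libraries, against 2.84, 3.20 and 2.80 in PK-cleaved NMP peptides libraries.

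In the NMP peptides plus APV libraries Gabra5 lay lower and Gabra2 and Gabrb2 higher than in the peptide groups without APV, but no member passed the adjusted threshold. The comparison with NMP peptides called 0 of 7 members, beside 1.43% of all genes, and 3 of 7 passed at an unadjusted p under 0.05, beside 15.8%. The same 3 members, Gabra2, Gabra5 and Gabrb2, had libraries that did not overlap, beside 21.8% of all genes. The comparison with PK-cleaved NMP peptides called 0 of 7, beside 1.39%. Gabra2 and Gabra5 made up the 2 of 7 that passed unadjusted, beside 15.6%, and the 2 of 7 with libraries apart, beside 20.2%. Against DMSO 0 of 7 were called, beside 0.625%, with 1 of 7, Gabra5, at an unadjusted p under 0.05, beside 11.5%, and 2 of 7, Gabra2 and Gabra5, with libraries apart, beside 29.8%. These 3 comparisons share the NMP peptides plus APV libraries and are not independent of each other.

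Gabra5 measured 5.08, 4.98 and 5.18 in NMP peptides plus APV libraries, against 5.25, 5.54 and 5.31 in NMP peptides libraries. It measured 5.45, 5.53 and 5.28 in PK-cleaved NMP peptides libraries and 5.28 and 5.55 in DMSO libraries. All 3 libraries with APV lay below all 11 others, whose lowest value was 5.24 in a bicuculline library. The log2 fold change was -0.29 (SE 0.10, 0.819-fold) against NMP peptides, with an adjusted p = 0.175 by limma. Against PK-cleaved NMP peptides it was -0.34 (SE 0.10, adjusted p = 0.102), the lowest adjusted p of any member in the 10 comparisons. Against DMSO it was -0.34 (SE 0.11, adjusted p = 0.228), and it ranged from -0.47 without DMSO replicate 2 to -0.20 without DMSO replicate 3.

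Gabra2 measured 5.90, 5.81 and 5.94 in NMP peptides plus APV libraries, against 5.60, 5.74 and 5.45 in NMP peptides libraries. It measured 5.54, 5.70 and 5.49 in PK-cleaved NMP peptides libraries. All 3 libraries with APV lay above all 11 others, the closest being DMSO replicate 3 at 5.77. The log2 fold change was 0.28 (SE 0.11, 1.22-fold, adjusted p = 0.225) against NMP peptides and 0.30 (SE 0.11, adjusted p = 0.195) against PK-cleaved NMP peptides. Against DMSO it was 0.22 (SE 0.12, adjusted p = 0.513).

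Gabrb2 measured 4.77, 4.52 and 4.68 in NMP peptides plus APV libraries, against 3.98, 4.46 and 4.23 in NMP peptides libraries. It measured 4.14, 4.62 and 4.31 in PK-cleaved NMP peptides libraries, where replicate 2 lay above 1 of the libraries with APV. The log2 fold change was 0.43 (SE 0.15, adjusted p = 0.199) against NMP peptides, 0.30 (SE 0.15, adjusted p = 0.358) against PK-cleaved NMP peptides and 0.18 (SE 0.17, adjusted p = 0.731) against DMSO. Gabrb1 and Gabra3 had fold changes above 0 in all 3 comparisons, between 0.13 and 0.21 and between 0.12 and 0.15 log2 units, with overlapping libraries. Gabra4 and Gabrd stayed between -0.12 and 0.07 log2 units.

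**Figure D2:**
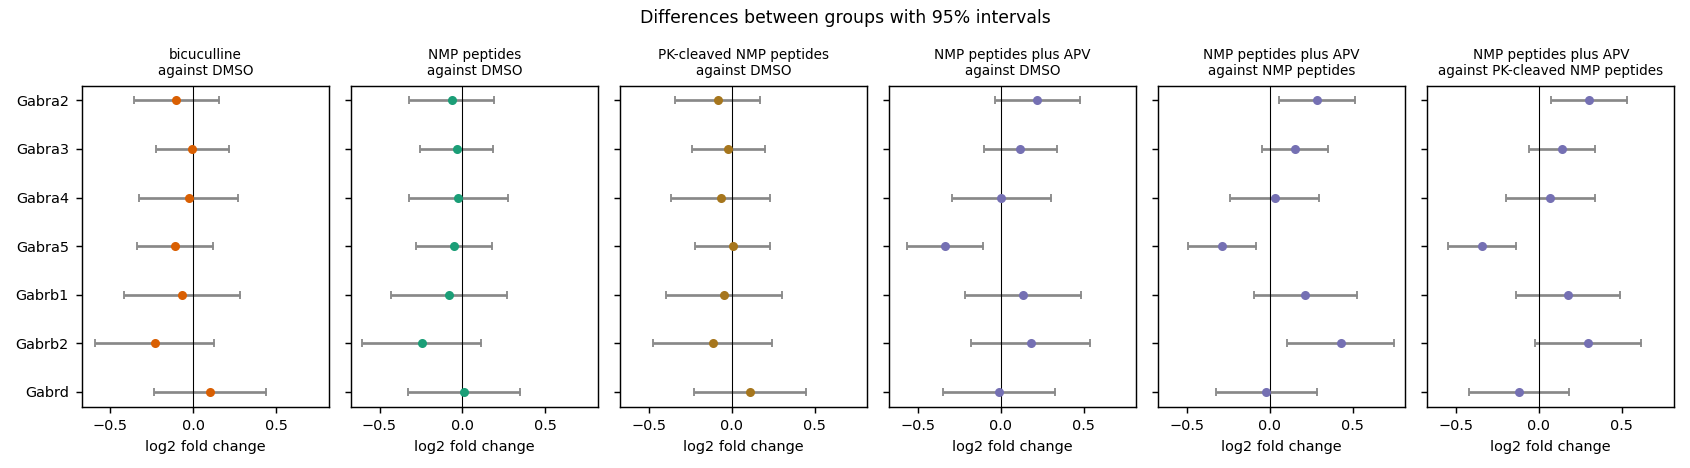
Log2 fold change of the 7 subunit mRNAs in 6 comparisons; points are estimates and bars 95% intervals before adjustment for multiple testing. The Gabra5 interval lies below 0 in the 3 panels with APV, at -0.34, -0.29 and -0.34, while the first 3 panels have all 7 intervals across 0.

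The activity gene Npas4, from a list of 7 activity genes, was highest with bicuculline, at 5.64, and lowest with NMP peptides plus APV, at 0.04. In NMP peptides plus APV against DMSO, 5 of these 7 had log2 fold changes above 0 and 2 below, with a median of 0.29. In that comparison 0 of the 7 activity genes were called, beside 0.625% of all genes. Bicuculline against NMP peptides plus APV called all 7 of them higher, beside 3.33% of all genes. The same comparison called 0 of 7 members. At an unadjusted p under 0.05 there were 3 of 7, beside 18.7%, and 4 of 7 had libraries apart, beside 25.6%. Gabra5 averaged 5.30 ± 0.07 in bicuculline libraries and 5.08 ± 0.10 in NMP peptides plus APV libraries (SD, n = 3 each). Gabra2 averaged 5.56 ± 0.22 in bicuculline libraries and 5.88 ± 0.07 in NMP peptides plus APV libraries, and Gabrb2 averaged 4.24 ± 0.25 in bicuculline libraries and 4.65 ± 0.13 in NMP peptides plus APV libraries. The adjusted p-values by limma were 0.224 for Gabra5, 0.127 for Gabra2 and 0.164 for Gabrb2. Gabrb1 was the fourth member with libraries apart, at 3.10, 2.75 and 2.91 in bicuculline libraries, against 3.16, 3.10 and 3.11 in NMP peptides plus APV libraries, where the nearest libraries of the groups were equal to the second decimal. Bicuculline against PK-cleaved NMP peptides and against NMP peptides called 0 of 7 members each, beside 0.533% and 0.175% of all genes. Neither had a member at an unadjusted p under 0.05, beside 3.38% and 2.12%, or with libraries apart, beside 6.62% and 4.7%. A moderated F test over the 5 groups called 0 of 7 members, beside 1.65% of all genes, and the lowest adjusted p was 0.337, for Gabra5. At an unadjusted p under 0.05 it had 1 of 7, Gabra5, beside 9.48%.

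Set against each other inside a library, Gabra2 and Gabra5 separated the NMP peptides plus APV libraries from the others by more than either subunit did alone. With APV, Gabra2 lay above and Gabra5 below all 11 other libraries, so this wider separation follows from the single genes by arithmetic. It is not a further observation. Differences inside a library were described for all 21 pairs of members, without a test, since the pairs were looked at after the values were known. Gabra2 exceeded Gabra5 by 0.767 to 0.823 log2 units in NMP peptides plus APV libraries. That difference was 0.087 to 0.375 in bicuculline libraries, 0.144 to 0.346 in NMP peptides libraries, 0.089 to 0.201 in PK-cleaved NMP peptides libraries and 0.218 to 0.274 in DMSO libraries. Its mean was 0.802 ± 0.031 in NMP peptides plus APV libraries (SD, n = 3) and 0.219 ± 0.096 in the others (SD, n = 11). On the linear scale Gabra2 stood at 1.74 times Gabra5 with APV and at 1.16 times in the other libraries. Gabra5 exceeded Gabrb2 by 0.310 to 0.499 log2 units in NMP peptides plus APV libraries and by 0.894 to 1.31 in the others. As single genes, 2 of 7 members, Gabra2 and Gabra5, had the 3 libraries with APV apart from all 11 others, beside 8.0% of all tested genes. In 6 of 21 pairs of members the same libraries lay apart, beside 8.73% of all pairs of tested genes. The pairs share genes, 5 of the 6 hold Gabra5, which was already lowest with APV, and the sixth is Gabra2 with Gabra4, so the 6 are not separate observations. Gabra3 minus Gabrb1 was among the 15 pairs that overlapped, at 1.09 to 1.30 in NMP peptides plus APV libraries and 1.10 to 1.42 in the others.

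**Figure D3:**
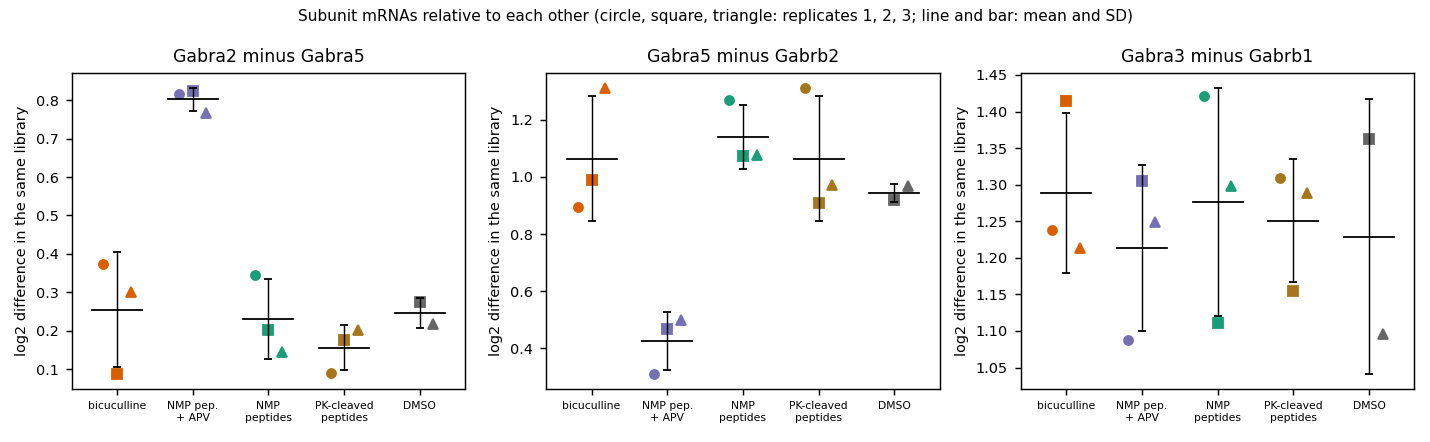
Difference in log2 signal between 2 subunits in the same library, for 3 pairs; points are libraries, lines are group means and bars SD, and the vertical axes do not start at 0. The 3 NMP peptides plus APV libraries lie above all others for Gabra2 minus Gabra5 (0.767 to 0.823) and below them for Gabra5 minus Gabrb2 (0.310 to 0.499), while Gabra3 minus Gabrb1 overlaps.

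Summed levels of inhibitory and astrocyte markers lay apart in the NMP peptides plus APV libraries. Abundant genes such as Sst and Slc1a3 weigh most in such sums. Limma called 0 of 10 inhibitory and 0 of 8 astrocyte markers against NMP peptides, PK-cleaved NMP peptides and DMSO. These comparisons called 1.43%, 1.39% and 0.625% of all genes. In each, 2 of 10 inhibitory markers had log2 fold changes above 0 and 1 or 2 of 8 astrocyte markers below 0. In bicuculline against NMP peptides plus APV 2 of 10 and 0 of 8 were called, beside 3.33%. The 10 inhibitory neuron markers summed to 475.7 to 496.8 in NMP peptides plus APV libraries and to 518.4 to 604 in all others. The 7 excitatory markers summed to 287.3 to 330.6 in NMP peptides plus APV libraries, against 240.1 to 297 in NMP peptides libraries, 263.6 to 314.7 in PK-cleaved NMP peptides libraries and 257 to 304.8 in DMSO libraries, and bicuculline libraries had 269.1 to 310.7. These ranges overlap that of the APV group. The 8 astrocyte markers summed to 307.4 to 335.5 with APV and to 259.7 to 306.8 elsewhere. The 8 oligodendrocyte lineage markers summed to 140.2 to 176.3 with APV, against 121.4 to 139.9 in NMP peptides libraries, 130.9 to 135.5 in PK-cleaved NMP peptides libraries and 131.3 to 163.2 in DMSO libraries, and bicuculline libraries had 117.7 to 142.6. A fit with the mean of the excitatory markers as a covariate was added after seeing the data. In it the Gabra5 log2 fold change of NMP peptides plus APV was -0.53 against NMP peptides (SE 0.08, adjusted p = 0.0115, where 0.524% of all genes were called). It was -0.49 against PK-cleaved NMP peptides (SE 0.07, adjusted p = 0.0035, beside 1.54%) and -0.48 against DMSO (SE 0.08, adjusted p = 0.00763, beside 1.51%). In the same fit Gabra2 had log2 fold changes of 0.04, 0.15 and 0.08 and Gabrb2 of -0.01, 0.03 and -0.07 in these comparisons, none of them called. Gabra5 was also the member called in bicuculline against NMP peptides plus APV, at 0.36 (SE 0.07, adjusted p = 0.0101, beside 2.89%), and in the F test (beside 1.46%). The covariate is measured in the same libraries and is itself higher on average with APV, and the part of cell composition in these differences was not tested further. A fit with the first 2 principal components of the residuals as covariates, also added after seeing the data, called Gabra2 and Gabra5 against DMSO, beside 8.07% of all genes. It called these and Gabrb2 against NMP peptides (beside 17%), against PK-cleaved NMP peptides (beside 15.3%), in bicuculline against NMP peptides plus APV (beside 20.1%) and in the F test (beside 13.3%). Since the components come from the residuals of the same libraries, the error shrinks by construction.

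Inside the groups, 6 of the 7 subunits moved together from library to library. All 7 members lay above their group mean in bicuculline replicate 1, NMP peptides replicate 2 and DMSO replicate 3. All 7 lay below it in PK-cleaved NMP peptides replicate 3 and DMSO replicate 2, which with 2 DMSO libraries is the mirror of replicate 3. The mean deviation of the 7 members ranged from -0.131 in bicuculline replicate 2 to 0.182 in NMP peptides replicate 2, and within the NMP peptides plus APV group only from -0.019 to 0.013 log2 units. Correlations of the deviations from the group means over 14 libraries had a median of 0.704 over the 15 pairs without Gabrd (0.337 to 0.864) and of 0.358 over the 6 pairs with Gabrd (-0.188 to 0.499). These are descriptions over libraries that share a normalisation. Gabrb1 with Gabra5 had the highest, 0.864, and the overlapping neighbours Gabra4 and Gabrb1 had 0.669. Gabra2 and Gabra5 correlated at 0.778 in their deviations but at -0.16 over the values of the 14 libraries, which include the differences between groups. Over all tested genes, the first 2 principal components of such deviations held 31.3% and 27.7% of the variance. The second loaded highest on PK-cleaved NMP peptides replicate 2, DMSO replicate 3, bicuculline replicate 1 and NMP peptides replicate 2. These libraries had the highest mean deviation of the members in their groups. Whether the shared movement is particular to the subunits was not tested.

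The library in which the subunits were highest in its group was also the library with the highest excitatory marker sum, in all 5 groups, and with the lowest inhibitory sum. In the NMP peptides group the excitatory sum was 297 in replicate 2 and 240.1 and 253.7 in the others, and the inhibitory sum was 520.7 in replicate 2 and 604 and 587 in the others. In the bicuculline group the excitatory sum was 310.7 in replicate 1 and 276.3 and 269.1 in the others. The pan-neuronal sum was also the highest of the group in that library, except in the NMP peptides plus APV group. The within-group SD was 0.205 for Gabrb1 and 0.215 for Gabrb2, beside a median of 0.127 over all tested genes, and 0.125 for Gabra5. The part of cell composition in these shared deviations was not tested.

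**Figure D4:**
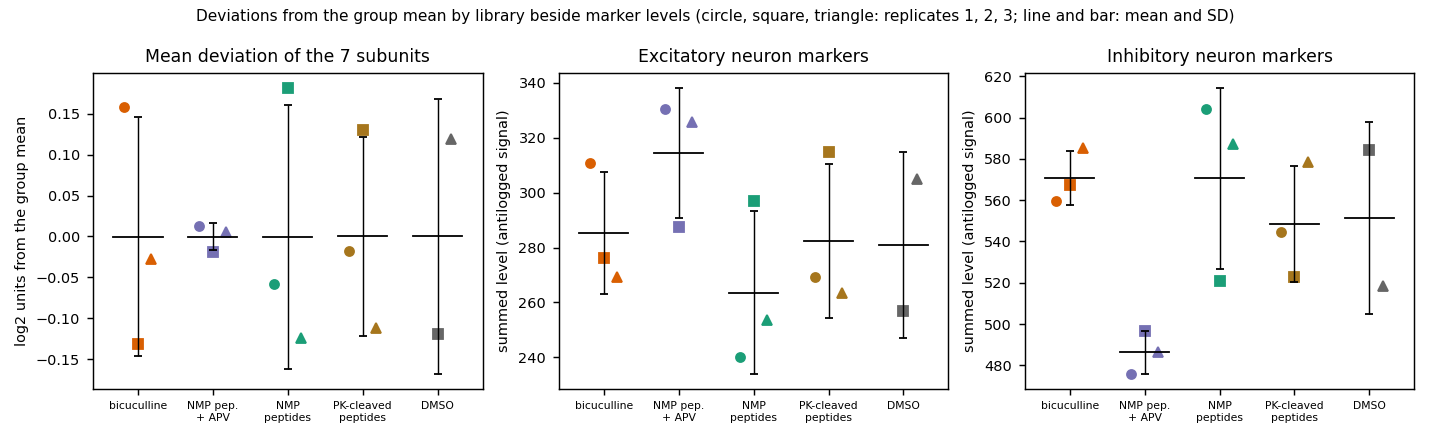
Left, mean deviation of the 7 subunit mRNAs from their group means in each library, in log2 units; middle and right, summed antilogged levels of 7 excitatory and 10 inhibitory neuron markers, with axes that do not start at 0. Lines are group means and bars SD; the highest library of each group on the left is the highest in the middle and the lowest on the right, and the inhibitory sums of the NMP peptides plus APV libraries (475.7 to 496.8) lie below all others.

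Of the other GABA-A and GABA-rho subunit symbols in the table, 5 of 12 lay above the filter and limma called 0 of the 5 in each of the 10 comparisons. Between 0 and 2 of the 5 had an unadjusted p under 0.05, the 2 in NMP peptides plus APV against DMSO, where 11.5% of all genes passed. They include Gabrg1 and Gabrg3, gamma subunits of low level here, with means of 1.43 and 1.28. Gabrg1 measured 1.33 ± 0.04 in NMP peptides plus APV libraries (SD, n = 3) and 1.58 ± 0.08 in DMSO libraries (SD, n = 2), and Gabrg3 measured 1.25 ± 0.11 with APV and 1.30 ± 0.34 with DMSO.

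Genes that make, move and clear GABA, or set the chloride gradient, were followed as a list of 11, all tested. Limma called 1 of 11, Gad1, which was higher in bicuculline against NMP peptides plus APV, and 0 of 11 in each of the other 9 comparisons. That comparison called 3.33% of all genes. Between 0 and 6 of 11 had an unadjusted p under 0.05 over the 10 comparisons, the 6 in the same comparison, where 18.7% of all genes passed unadjusted. Gad1, which makes GABA from glutamate, averaged 5.75 ± 0.19 in bicuculline libraries and 5.30 ± 0.05 in NMP peptides plus APV libraries (SD, n = 3 each). The difference was 0.45 log2 units (SE 0.11, adjusted p = 0.0449 by limma). Against DMSO bicuculline gave a log2 fold change of -0.02 for Gad1. Gad1 is also one of the 10 inhibitory markers. Slc12a5, the chloride exporter KCC2, averaged 5.36 in bicuculline libraries and 5.61 in NMP peptides plus APV libraries, with an adjusted p = 0.240.

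A list of 24 genes for the anchoring and transport of GABA-A receptors had 23 tested. The gene Hap1, a partner of the receptor's transport motors, rose in NMP peptides plus APV against PK-cleaved NMP peptides by 0.39 log2 units (SE 0.08, adjusted p = 0.0347), in a comparison that called 1.39% of all genes, at 5.90 ± 0.05 with APV and 5.51 ± 0.05 with cleaved peptides (SD, n = 3 each). Nlgn3, an adhesion protein of excitatory and inhibitory synapses, was lower in bicuculline libraries, at 4.54 ± 0.11, than in NMP peptides plus APV libraries, at 5.00 ± 0.05 (SD, n = 3 each), a difference of -0.46 log2 units with an SE of 0.12 and an adjusted p = 0.0413, in a comparison that called 3.33% of all genes. In each of these comparisons the other 22 of 23 were not called, and 0 of 23 were called in each of the remaining 8, with 0 to 9 of 23 at an unadjusted p under 0.05 over the 10. The 9 of 23 were in NMP peptides plus APV against NMP peptides, where 15.8% of all genes passed unadjusted. Gphn, which encodes the scaffold gephyrin, averaged 3.27 in NMP peptides plus APV libraries, against 3.46 in NMP peptides libraries, and its adjusted p was 0.296. Limma called 0 subunits of the NMDA, AMPA and glycine receptors in the 10 comparisons, with 4 of 7, 4 of 4 and 2 of 5 tested. At an unadjusted p under 0.05 there were at most 1, 2 and 1 of them in a comparison, in comparisons with the NMP peptides plus APV group, where 11.5% to 18.7% of all genes passed.

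The tested genes whose values over the 14 libraries were most like a subunit were listed by Pearson correlation, as a description that takes the highest of 10877 genes over libraries sharing a normalisation. Gabrb2 was most like Faxc at 0.981, then Nfix and Lsamp, and Gabrb1 most like Scn8a, a neuronal sodium channel, at 0.972, then Kcnma1 and Dlgap1. Gabra2 was most like Slc24a2 at 0.956, then Rfx3 and Nr3c1, and Gabra5 most like Nov at 0.952, then Rgs7 and Plppr5. Gabra4 was most like Synpo at 0.900, then Satb1 and Nectin3, Gabra3 most like Ptprj at 0.896, then Dgkh and Lrrc7, and Gabrd most like Ramp3 at 0.882, then Zdhhc14 and Hspa2. The mean of the 7 standardised profiles was most like Chrm1, a muscarinic acetylcholine receptor, at 0.964. Of the 3 genes listed per member, none was shared between 2 members.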

How the data were processed

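RNA sequencing of 14 libraries in 5 groups was analysed from 1 deposited table. Its values were deposited by the authors as log2 signals per gene, with a mark for missing values; base 2, a scale per exon length and quantile normalisation were judged from the values, since no label states them. Reads were mapped to GRCm38.p6, per the submitters' processing notes, and the aligner and counter are not named in those notes. Quantile normalisation hides differences in total RNA, and read depth is unknown. The lowest 40% of features by mean over all libraries were dropped, which left 10877 genes. Using limma 3.58.1 in R 4.3.3, all libraries entered 1 linear model of group means with a variance trend, and p-values were adjusted by Benjamini-Hochberg over all tested genes within each of 10 comparisons and an F test. An adjusted p under 0.05 was called. The procedure was tested on simulated data. All members were named, with the 3 genes most correlated with each and genes of fixed lists that were called; Slc12a5, Gphn, Gabrg1, Gabrg3 and Gabrq were named after their values were seen. The members and lists were chosen with earlier results of these data known. Replicates are called biological, but their source is not stated, so p-values cover the spread between these libraries, which may be technical. Replicate numbers were taken to pair groups where 3 pairs of deviations from the group means each correlated above 0.1, which held for PK-cleaved with intact NMP peptides (0.51, 0.499 and 0.613); the labels do not state a pairing. Values of some further subunits are not reported here. Alternatives were no filter, dropping 60%, median centring, a replicate block, no variance trend, array weights, an astrocyte covariate, the compared groups alone and leaving out each library.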

Additional observations from a re-analysis of the deposited data

How the results depend on the processing

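No member was called in the 10 comparisons and the F test under any of 22 other settings, which gave 241 counts of 0. The main fit called between 0% and 3.33% of all genes in the 10 comparisons and 1.65% in the F test. Counts of 0 among 7 genes are near such shares and say little about the members. The lowest adjusted p among these settings was 0.0506, with array weights in NMP peptides plus APV against PK-cleaved NMP peptides. A replicate block over all groups gave 0 called members in every comparison. The block over the compared groups alone was run only for comparisons without DMSO. It gave 0 called members in each of those, the paired NMP peptides and PK-cleaved NMP peptides included. Replicate numbers met the rule for pairing in no other comparison, so a block on them says little there. Leaving out each library gave counts from 0 to 0. A further 4 fits were added after seeing the data, and 2 of them, the first residual component and the block over compared groups, called 0 members. With the first 2 residual components as covariates 2 members (Gabra2 and Gabra5) were called in NMP peptides plus APV against DMSO, and 3 (with Gabrb2) against NMP peptides, 3 against PK-cleaved NMP peptides, 3 in bicuculline against NMP peptides plus APV and 3 in the F test, with group differences of the same size and smaller errors. With the excitatory marker covariate 1 member, Gabra5, was called in each of these 4 comparisons and in the F test. No single-gene value changed sign while called. Groups of 2 or 3 libraries and an unknown depth limit what could be seen.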

Other observations

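Gabrq, the theta subunit, lay below the filter and was looked at after its values were seen. It measured -2.58, -2.58 and -2.74 log2 units in NMP peptides plus APV libraries, against -1.58, -0.93 and -1.73 in NMP peptides libraries. It measured -1.28, -1.37 and -1.22 in bicuculline libraries, -1.30, -1.02 and -1.79 in PK-cleaved NMP peptides libraries and -1.13 and -1.42 in DMSO libraries. All 3 libraries with APV lay below all 11 others. In the fit without a filter, over 14388 genes, limma gave a log2 fold change of NMP peptides plus APV of -1.22 against NMP peptides (SE 0.25, adjusted p = 0.0267, where 1.11% of genes were called). It gave -1.26 against PK-cleaved NMP peptides (SE 0.25, adjusted p = 0.0258, beside 0.91%) and -1.36 against DMSO (SE 0.28, adjusted p = 0.0479, beside 0.493%). Bicuculline against NMP peptides plus APV gave 1.34 (SE 0.25, adjusted p = 0.00702, beside 2.76%), and the other 6 comparisons did not call it. At this low level, in a table of unknown depth, the counting error behind these values is unknown.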
